A study of Homo sapiens with 8 samples.

Results

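The genes described are 10 protease inhibitors of the Kazal, Kunitz and WAP (whey acidic protein) families: SPINK1, SPINK4, SPINK5, SPINK6, SPINT1, SPINT2, TFPI2, SLPI, PI3 and WFDC2. They were taken by symbol from the 27475 human genes of the deposited table, and all 10 had an entry. The set was chosen because SPINK4 was higher after PAI-1 knock-down in RT112 cells, so values of that contrast are given as a description with no test.

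RNA-seq was performed on 2 established human bladder cancer cell lines, UM-UC-3 and RT112. Each line was transfected with pooled siRNAs targeting PAI-1 (siPAI-1; 3 siRNAs, 100 pmol) or with a scrambled control pool of the same size (Scr), and RNA was collected after 72 h. With 2 libraries for each siRNA in each line there were 4 groups and 8 libraries, and all cultures, controls included, had been transfected. Each line stands for 1 tumor. The paper describes 3 independent experiments for the knock-down, whereas there are 2 libraries per group here. The labels only number the libraries and do not tie them to separate cultures. The p-values therefore measure the spread between these libraries, which may be technical.

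Kazal, Kunitz and WAP domains are small folds held together by disulfide bonds that block serine proteases by occupying their active site like a substrate. Epithelia make many of them: the Kunitz proteins HAI-1 (SPINT1) and HAI-2 (SPINT2) sit in the cell membrane and restrain matriptase and related proteases, and the WAP proteins SLPI and elafin (PI3) are secreted and inhibit neutrophil elastase. The SPINK genes encode secreted Kazal inhibitors: SPINK1 inhibits trypsin in the pancreas, SPINK5 and SPINK6 inhibit kallikreins of the skin, and SPINK4 is known from goblet cells of the gut.

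Of the 10 genes, 6 lie in 2 clusters of the genome (RefSeq, GRCh38.p14). SPINK1, SPINK5 and SPINK6 lie within 390.6 kb at chr5:147824582-148215137. PI3, SLPI and WFDC2 lie within 306.6 kb at chr20:45174902-45481532. SPINK4 lies alone at chr9:33240167-33248567, TFPI2 at chr7:93885396-93890753, SPINT1 at chr15:40844048-40858207 and SPINT2 at chr19:38264573-38292615. RefSeq places a lncRNA gene across part of 4 members (SPINK1, SPINK5, SPINT1 and SLPI; for SPINT1 it is SPINT1-AS1). The libraries were stranded, but whether strand was used in counting is not given in the sources used here, so reads of such a partner cannot be told apart from those of the member.

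RefSeq promoter sequences (250 bases before to 50 bases after the start) were found for 7 of the 10 genes. SPINK4, which led to the choice of the set, and SPINT1 and TFPI2, which differed most clearly between the lines among the genes with a promoter entry, are shown 5′ to 3′ on the strand of the gene. Capitals mark matches, on either strand, to 5 short motifs. The TATA box was searched for as TATAAA. The GC box was searched for as GGGCGG. The E-box was searched for as CACCTG. The AP-1 motif was searched for as TGANTCA, where N is any base. The motif of GATA factors was searched for as AGATAA.
SPINK4 (chr9:33239917-33240216, plus strand): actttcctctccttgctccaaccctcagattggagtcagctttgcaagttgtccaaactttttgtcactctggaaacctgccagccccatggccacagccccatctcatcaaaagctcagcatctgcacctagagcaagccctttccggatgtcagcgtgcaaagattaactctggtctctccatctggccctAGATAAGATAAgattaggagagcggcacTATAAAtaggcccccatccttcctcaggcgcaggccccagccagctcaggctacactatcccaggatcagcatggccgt
TFPI2 (chr7:93890704-93891003, minus strand): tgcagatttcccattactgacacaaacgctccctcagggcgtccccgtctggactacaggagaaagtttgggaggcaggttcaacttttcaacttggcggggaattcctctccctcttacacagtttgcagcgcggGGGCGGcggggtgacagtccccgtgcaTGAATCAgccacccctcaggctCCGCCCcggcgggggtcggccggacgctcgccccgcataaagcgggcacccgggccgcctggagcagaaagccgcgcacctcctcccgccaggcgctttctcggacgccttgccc
SPINT1 (chr15:40843798-40844097, plus strand): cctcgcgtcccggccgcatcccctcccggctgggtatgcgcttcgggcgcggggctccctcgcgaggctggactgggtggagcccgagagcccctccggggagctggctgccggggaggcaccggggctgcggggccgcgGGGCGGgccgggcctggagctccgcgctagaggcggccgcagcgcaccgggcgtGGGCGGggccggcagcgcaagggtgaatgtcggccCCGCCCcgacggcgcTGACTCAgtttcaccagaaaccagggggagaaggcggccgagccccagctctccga
The SPINK4 promoter held 1 TATAAA and 2 AGATAA, which overlap each other by a single base, and no GGGCGG. Its CpG content was low, with an observed over expected ratio of 0.25 against a median of 0.58 over all 35116 promoters, and its GC content was 53.0% against a median of 58.7%. The TFPI2 promoter had 65.3% GC, a CpG ratio of 0.82, 2 GGGCGG and 1 TGANTCA. The SPINT1 promoter had 77.7% GC, a CpG ratio of 0.85, 3 GGGCGG and 1 TGANTCA. SPINT1 has another annotated start, and the promoter of that start, at chr15:40844227-40844526, is not shown. Among all promoters of this length, 11.5% hold TATAAA, 45% GGGCGG, 20.6% CACCTG, 7.7% TGANTCA and 10.3% AGATAA. These matches describe the letters only, and the motifs were chosen with the sequences in view.

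Levels are given in TPM (transcripts per M transcripts, M for mega), a unit corrected for gene length with the same sum in each library, so levels of different genes can be compared. The library depths, estimated from the steps between low FPKM values, were between 29.3 and 34.1 M reads, and 16157 to 16663 genes were above 0 TPM per library. An entry of 0 can be a missing read or a failed estimate and is reported as listed at 0. The lines were checked against markers of epithelial cells. Of the 8 epithelial markers, 6 (CDH1, EPCAM, GRHL2, ELF3, KRT19 and ESRP1) summed to between 3712 and 3872 TPM in the RT112 libraries and to between 0.75 and 4.79 TPM in those of UM-UC-3, whereas UM-UC-3 kept the keratins KRT8 (34.9 TPM) and KRT18 (182.3 TPM) and had VIM at 2997 TPM (Scr means, n = 2). UM-UC-3 thus had most epithelial markers near 0. RT112 siPAI-1 replicate 1 stood apart in its mesenchymal markers. The 5 markers summed to 72.4 TPM there and to 134.8 to 147.3 TPM in the other RT112 libraries. FN1 and CDH2 made most of this gap. Among genes with a group mean of at least 1 TPM, the median absolute log2 difference between replicates was 0.149 in RT112 siPAI-1. It was 0.115 to 0.142 in the other groups.

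The inhibitors differed widely between the lines. In RT112 cells, the Kunitz genes SPINT2, SPINT1 and TFPI2 and the WAP gene SLPI were abundant, and in UM-UC-3 cells the same 4 genes were near 0 or at a few TPM. SPINK4 was low in RT112 and listed at 0 in UM-UC-3 Scr, whereas PI3 was low in UM-UC-3 and listed at 0 in RT112. The 3 Kunitz genes together took 1222 to 1278 TPM in the RT112 libraries and 3.65 to 6.82 TPM in the UM-UC-3 libraries. The 3 WAP genes took 60.8 to 111.2 TPM and 0.25 to 0.72 TPM, and the 4 Kazal genes 3.11 to 19.4 TPM and 0 to 0.39 TPM.

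**Figure D1:**
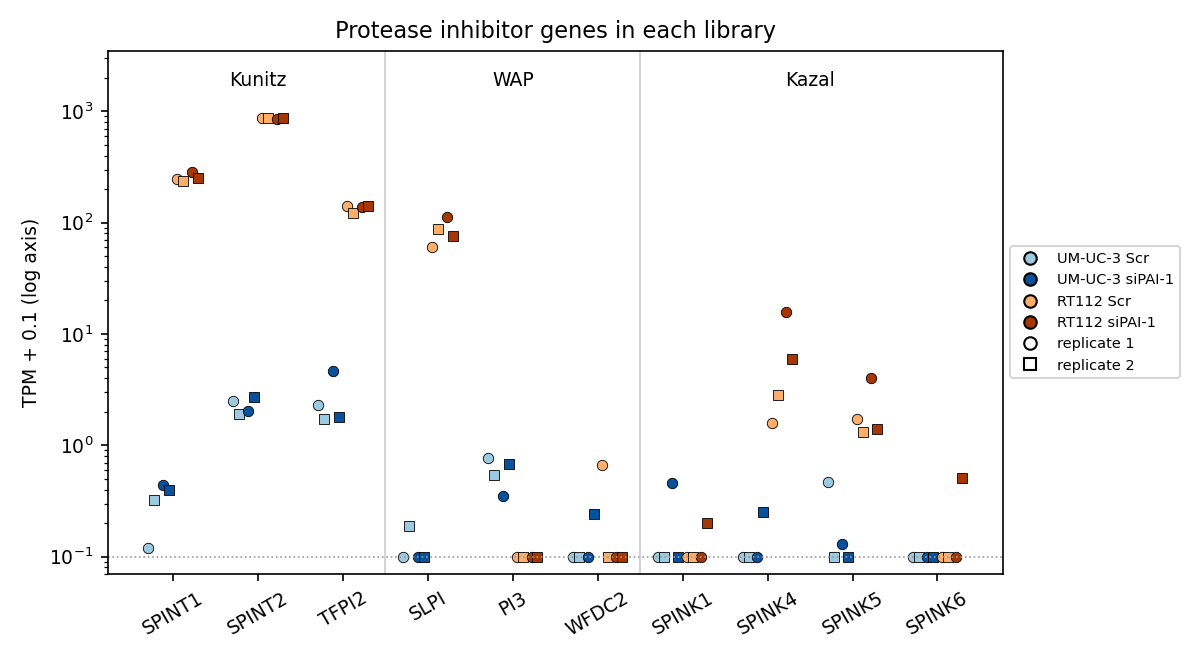
TPM + 0.1 on a log axis for the 10 inhibitor genes in each of the 8 libraries, grouped by family; color marks the group, circles replicate 1 and squares replicate 2, and the dotted line is a value of 0 TPM. All RT112 points of SPINT1, SPINT2, TFPI2 and SLPI lie above 60 TPM and all UM-UC-3 points of these genes below 5 TPM.

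The Scr libraries of the lines were compared first, because the difference that led to the choice of the genes lay in another contrast. Earlier results of these data were known when the genes were chosen, so this contrast may not be independent of the choice. With limma on log2(TPM + 0.1), 5 of the 10 genes were higher in RT112 at an adjusted p under 0.05 (SPINT1, SPINT2, TFPI2, SLPI and SPINK4) and 1 was lower (PI3). Another 2 did not pass (SPINK5 and WFDC2), and SPINK1 and SPINK6 were not tested because they were listed at 0 in all 4 libraries. Over all 19201 genes tested, 25.3% were higher and 26.3% lower, so calls were common between these lines. The share of inhibitors higher in RT112 exceeded this background while the share lower did not. This describes the 10 genes chosen and was not tested. The median log2 difference of the 8 inhibitors tested was 5.22, against -0.06 over all genes tested. Because these are bulk samples, fewer cells with a transcript and less of it per cell cannot be told apart.

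SPINT2 was the highest of the 10 genes in every RT112 library. It stood at 874.39 and 863.99 TPM in RT112 Scr and at 2.42 and 1.8 TPM in UM-UC-3 Scr. Its mean was 869.2 ± 7.4 TPM in RT112 and 2.11 ± 0.44 TPM in UM-UC-3 (SD, n = 2), a ratio of 412. The log2 difference was 8.63 (SE 0.16) with an adjusted p of 0.000243 (limma, Benjamini-Hochberg). The estimated 151.5 to 201.6 reads per UM-UC-3 library lie well above the 3 reads taken as the limit for an entry of 0.

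SPINT1, the sister gene that encodes HAI-1, stood at 245.91 and 236.05 TPM in RT112 Scr and at 0.02 and 0.22 TPM in UM-UC-3 Scr. These UM-UC-3 values rest on an estimated 0.9 and 15.1 reads, so the groups are far apart but the size of the ratio is poorly known. The log2 difference was 10.26 (SE 0.51) with an adjusted p of 0.000639 (limma). In RT112 Scr the level of SPINT2 was 3.61 times that of SPINT1. Matriptase (ST14), the membrane protease that HAI-1 inhibits, was at 157.63 and 161.87 TPM in RT112 Scr and at 0.06 and 0.24 TPM in UM-UC-3 Scr, so it was high in the same line as its inhibitor.

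The third Kunitz gene, TFPI2, encodes a secreted inhibitor of plasmin, trypsin and the complex of tissue factor with factor VIIa. It was at 140.36 and 122.23 TPM in RT112 Scr and at 2.19 and 1.63 TPM in UM-UC-3 Scr, a ratio of means of 68.7. The log2 difference was 6.04 (SE 0.18) with an adjusted p of 0.000313 (limma). As for SPINT2, the UM-UC-3 values rest on well over 3 reads, an estimated 97.3 and 78.4.

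SLPI and PI3, which are close relatives on chromosome 20, went opposite ways. SLPI was at 60.22 and 87.14 TPM in RT112 Scr and at 0 and 0.09 TPM in UM-UC-3 Scr, the latter an estimated 1.0 read. Its log2 difference was 9.04 (SE 0.42) with an adjusted p of 0.000556 (limma), but its size is set by the pseudocount, with 6.14 at 1 TPM and 11.16 at 0.01 TPM. PI3 was listed at 0 in all 4 RT112 libraries and was at 0.67, 0.44, 0.25 and 0.58 TPM in the UM-UC-3 libraries, an estimated 2.8 to 6.7 reads. PI3 was lower in RT112 with an adjusted p of 0.00461 (limma), and no fold is given against a group at 0. WFDC2, which encodes the secreted protein HE4, was at 0.56 TPM in RT112 Scr replicate 1 and at 0.14 TPM in UM-UC-3 siPAI-1 replicate 2, and was listed at 0 in the other 6 libraries. Its adjusted p between the lines was 0.333.

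Of the Kazal genes, SPINK4 was at 1.48 and 2.73 TPM in RT112 Scr and listed at 0 in both UM-UC-3 Scr libraries, where 3 reads would be worth 0.291 to 0.314 TPM. It was higher in RT112 with an adjusted p of 0.00233 (limma), and again no fold is given. SPINK5 was at 1.63 and 1.22 TPM in RT112 Scr and at 0.37 and 0 TPM in UM-UC-3 Scr. Its log2 difference of 2.80 (SE 0.85) missed the threshold with an adjusted p of 0.0558 (limma). The difference was 3.92 without UM-UC-3 Scr replicate 1 and 1.68 without UM-UC-3 Scr replicate 2. In the siPAI-1 libraries of the lines, SPINK5 was higher in RT112 with an adjusted p of 0.00683. SPINK1 and SPINK6 were listed at 0 in all Scr libraries. SPINK1 had 0.36 TPM in UM-UC-3 siPAI-1 replicate 1 and 0.1 TPM in RT112 siPAI-1 replicate 2, and SPINK6 had 0.41 TPM in the latter alone, an estimated 4.7 reads.

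**Figure D2:**
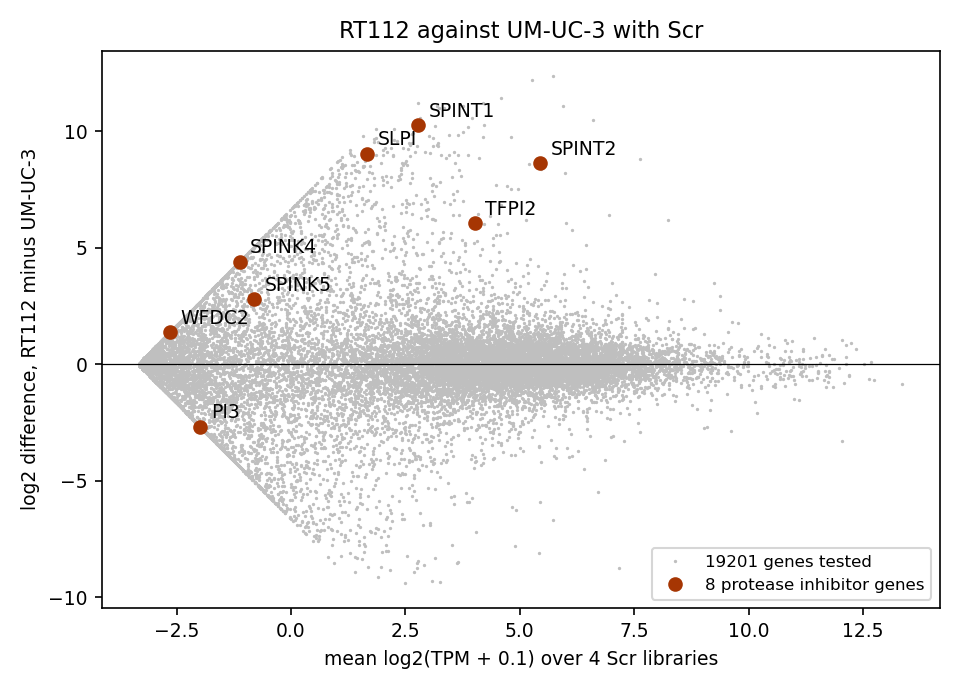
Log2 difference in TPM + 0.1 between RT112 Scr and UM-UC-3 Scr (2 libraries each) against the mean log2(TPM + 0.1) over these 4 libraries; gray points are the 19201 genes tested and red points the 8 inhibitors among them. SPINT1, SLPI and SPINT2 lie between 8.63 and 10.26, and SPINK4, WFDC2 and PI3 lie on the edges of the cloud where 1 line is listed at 0.

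Ordered by level, RT112 Scr cells had SPINT2, SPINT1, TFPI2, SLPI, SPINK4, SPINK5 and WFDC2, followed by 3 genes listed at 0. Neighbors in this order did not overlap over the 2 libraries, except SPINK4 with SPINK5 and WFDC2 with the genes at 0. In UM-UC-3 Scr cells the order began with SPINT2 and TFPI2, which overlapped, followed by PI3, which did not overlap with either neighbor. SPINK5, SPINT1 and SLPI followed and overlapped with one another in turn, and the remaining 4 were listed at 0. Across all 8 libraries, 3 genes (SPINT1, SPINT2 and TFPI2) were above 0 in every library.

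The low levels in UM-UC-3 were set beside the epithelial markers, because traces of such markers also varied between the UM-UC-3 libraries. The 6 markers without keratins 8 and 18 summed to 0.75 TPM in UM-UC-3 Scr replicate 1, with 3 of 6 above 0, and to 4.77, 3.3 and 4.79 TPM in Scr replicate 2, siPAI-1 replicate 1 and siPAI-1 replicate 2, with 6 of 6 above 0. As a percentage of the RT112 Scr mean, SPINT1 was at 0.0083, 0.0913, 0.141 and 0.125 in the same order, so it was also lowest in Scr replicate 1. SPINT2, at 0.278, 0.207, 0.222 and 0.299, and TFPI2, at 1.67, 1.24, 3.47 and 1.28, were not lowest in that library. SLPI was above 0 in Scr replicate 2 alone (0.122) and was listed at 0 in both siPAI-1 libraries. The part of these traces in the values of SPINT1 was not tested.

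Other genes with the same domains did not share one direction between the lines. Over all genes tested, 25.3% were higher and 26.3% lower in RT112 Scr, and the counts below stand beside these shares. Of 18 further Kazal genes, 13 were tested, and 4 were higher and 5 lower in RT112 Scr. SPOCK1, a proteoglycan of the matrix, was higher by 3.65 on the log2 scale and follistatin (FST) by 2.90, and FSTL3 and AGRN by 0.83 and 0.62. SPARC, a matrix protein of mesenchymal cells, had a log2 difference of -9.36 (0.275 TPM in RT112 and 245.7 TPM in UM-UC-3), and FSTL1 and SMOC1 had differences of -8.06 and -7.55. TMEFF2 was lower too, at 1.89 TPM in UM-UC-3 and listed at 0 in RT112. Of 12 further Kunitz genes, 9 were tested, with 1 higher and 3 lower. APLP2, a relative of the amyloid precursor, was higher by 1.38, and PAPLN, TFPI and APP had differences of -1.98, -0.96 and -0.79. TFPI, the closest relative of TFPI2, was at 74.2 TPM in RT112 and 144.7 TPM in UM-UC-3. Of 12 further WAP genes only 5 were tested, and ANOS1 was the sole call, higher by 5.31. The median log2 differences were -0.29, 0.06 and 0.50 for these Kazal, Kunitz and WAP genes, against -0.06 over all genes tested.

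Serine proteases and tissue factor had more calls higher than lower in RT112. Of 26 such genes, 24 were tested, and 12 were higher and 2 lower in RT112 Scr. Over all genes tested, 25.3% were higher and 26.3% lower. The median log2 difference of the 24 genes was 1.16. Whether the inhibitors act on these proteases in these cells was not tested. The calls with the greatest differences were in TMPRSS4 (10.58), ST14 (9.42), KLK6 (8.99) and PRSS22 (7.46), of which TMPRSS4 and ST14 are membrane proteases and KLK6 is a secreted kallikrein; all 4 were below 1 TPM in UM-UC-3, where the pseudocount bears on the size. PLAU, which encodes the plasminogen activator uPA, had a log2 difference of -2.93 (71.5 TPM in RT112 and 545.0 TPM in UM-UC-3), and PRTN3 was at 0.41 TPM in UM-UC-3 and listed at 0 in RT112. Of 4 genes of HGF (hepatocyte growth factor) and MSP signalling, whose ligands are activated by proteases that HAI-1 and HAI-2 inhibit, the receptors MST1R and MET were higher in RT112 by 5.35 and 1.14 and the other 2 did not pass. All 8 epithelial markers were higher in RT112. Of 5 mesenchymal markers, VIM, ZEB1 and TWIST1 were lower (-8.75, -7.07 and -5.76) and CDH2 and FN1 higher (0.96 and 0.79). Of the goblet cell markers TFF3 alone was higher, at 0.29 TPM in RT112 Scr and listed at 0 in UM-UC-3. Of the leukocyte markers CD3E was higher (0.16 TPM in RT112 Scr, listed at 0 in UM-UC-3) and CD14 lower (0.105 and 0.435 TPM). The summed goblet cell markers took 0.07 to 1.96 TPM per library and the summed leukocyte markers 0.11 to 0.63 TPM.

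**Figure D3:**
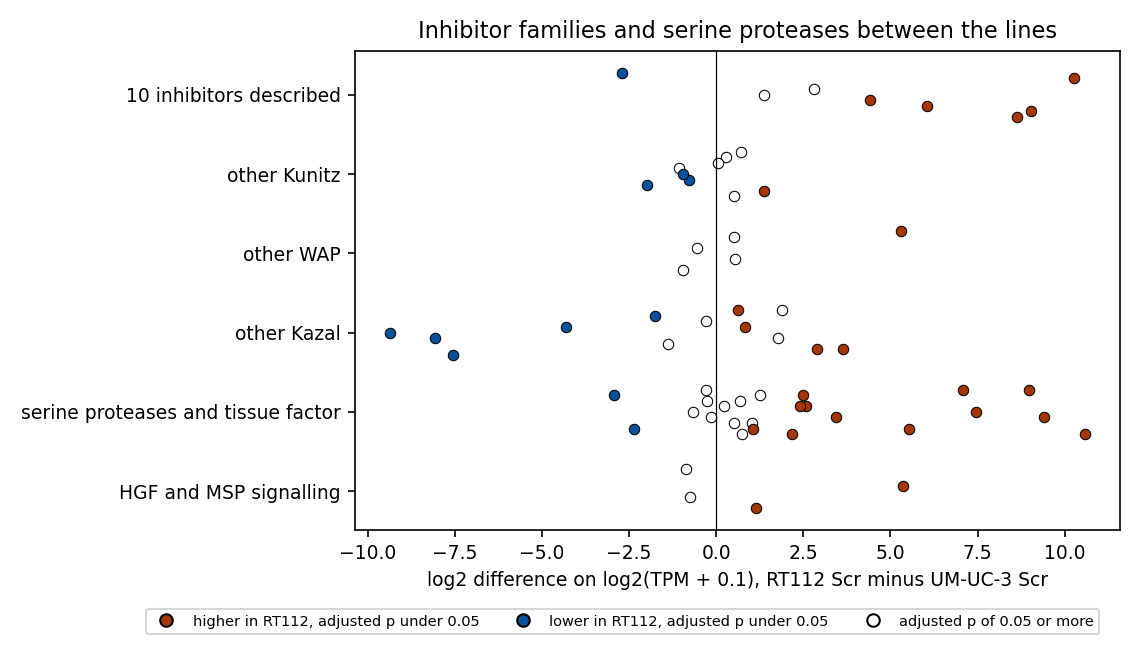
Log2 difference in TPM + 0.1 between RT112 Scr and UM-UC-3 Scr for each tested gene of 6 lists (rows; the vertical offset within a row has no meaning); red and blue points have an adjusted p under 0.05 (limma), white points do not. The further Kazal genes spread from -9.36 to 3.65, whereas 12 of the 14 calls among serine proteases and tissue factor lie on the RT112 side (48.9% of the calls over all genes).

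After PAI-1 knock-down in UM-UC-3 cells, no change was detected in these inhibitors. Of the 10 genes, 9 were above 0 in at least 1 library and were tested, and 0 passed at an adjusted p under 0.05 or at an unadjusted p under 0.05 (limma). Among all 18528 genes tested, 0 passed the adjusted threshold, while before adjustment 2.6% passed as higher and 3.41% as lower. This comparison and that between the lines share the UM-UC-3 Scr libraries.

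SPINT1 came closest, at 0.02 and 0.22 TPM in the Scr libraries and 0.34 and 0.3 TPM in the siPAI-1 libraries. The groups did not overlap, as for 15.1% of all genes tested in this direction (17.1% in the other, which held for 0 of the 10), and the log2 difference of 1.10 (SE 0.59) had an adjusted p of 0.858 (limma). All 4 values rest on an estimated 0.9 to 23.4 reads, and without Scr replicate 2 the log2 difference was 1.81 with an adjusted p of 0.0236 in a fit over 7 libraries, which takes the single Scr library left to vary like the other groups. The Scr library at 0.02 TPM was also the one lowest in the 6 epithelial markers without KRT8 and KRT18. Over all 8 epithelial markers, siPAI-1 replicate 1 was lowest (208.3 TPM, against 212.2 TPM in Scr replicate 1). SPINT2 was at 1.93 and 2.6 TPM with siPAI-1, within reach of the Scr values, and its log2 difference was 0.10 (SE 0.33). TFPI2 was at 4.55 and 1.68 TPM with siPAI-1, and replicate 1 was above and replicate 2 between the Scr values. Its log2 difference was 0.53 (SE 0.53). PI3 had a log2 difference of -0.40 (SE 0.53) with overlapping groups. The other 5 genes tested were listed at 0 in at least 2 of the 4 libraries, and SPINK4 had a single value above 0, 0.15 TPM in siPAI-1 replicate 2, which is an estimated 1.4 reads. None of these differences was distinguishable from the spread between the libraries of a group at this depth.

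In RT112 cells, SPINK4 was the gene that led to the choice of the set. It stood at 1.48 and 2.73 TPM in the Scr libraries and at 15.51 and 5.84 TPM in the siPAI-1 libraries, an estimated 14, 25.3, 166.2 and 57.1 reads. Both siPAI-1 libraries lay above both Scr libraries, and the 2 siPAI-1 libraries differed from each other by 2.66 times. The Scr mean was 2.11 ± 0.88 TPM and the siPAI-1 mean 10.7 ± 6.8 TPM (SD, n = 2), a ratio of 5.07, and on the log2 scale the difference was 2.19 (SE 0.57). Replicate 1 was at 7.37 times and replicate 2 at 2.77 times the Scr mean. Without siPAI-1 replicate 1, the library that stood apart in mesenchymal markers, the log2 difference was 1.49, and without siPAI-1 replicate 2 it was 2.88. In this contrast, which shares the RT112 Scr libraries with the comparison of the lines, 0 of 18437 genes passed the adjusted threshold, while before adjustment 3.35% passed as higher and 2.42% as lower.

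The second Kazal gene with reads in RT112, SPINK5, was at 1.63 and 1.22 TPM in the Scr libraries and at 3.91 and 1.31 TPM in the siPAI-1 libraries. Replicate 1 of siPAI-1 lay above the other 3 libraries, at 2.98 times the level of replicate 2, and replicate 2 lay between the Scr values. The log2 difference of SPINK5 was 0.65 (SE 0.59), and without siPAI-1 replicate 1 it turned to -0.10. SLPI was at 60.22 and 87.14 TPM in the Scr libraries and at 111.24 and 75.57 TPM in the siPAI-1 libraries, again with replicate 1 highest and the groups overlapping, and its log2 difference was 0.34 (SE 0.26). SPINT1 was at 245.91 and 236.05 TPM in the Scr libraries and at 284.35 and 249.92 TPM in the siPAI-1 libraries, a log2 difference of 0.15 (SE 0.08) with no overlap. SPINT2 was at 854.83 and 868.96 TPM with siPAI-1 and TFPI2 at 139.3 and 140.07 TPM, with log2 differences of -0.01 (SE 0.05) and 0.09 (SE 0.08) and overlapping groups. PI3 was listed at 0 in every RT112 library, and SPINK1, SPINK6 and WFDC2 each had 1 value above 0. Thus SPINK4 and SPINT1 had siPAI-1 values above both Scr values, as had 18% of all genes tested. For SPINK4 this follows from how the set was chosen. Of the 9 inhibitors above 0 in RT112, 0 lay below both Scr values, as had 14.7% of all genes tested. Whether the siPAI-1 difference of any of these genes differed between the lines was not tested.

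**Figure D4:**
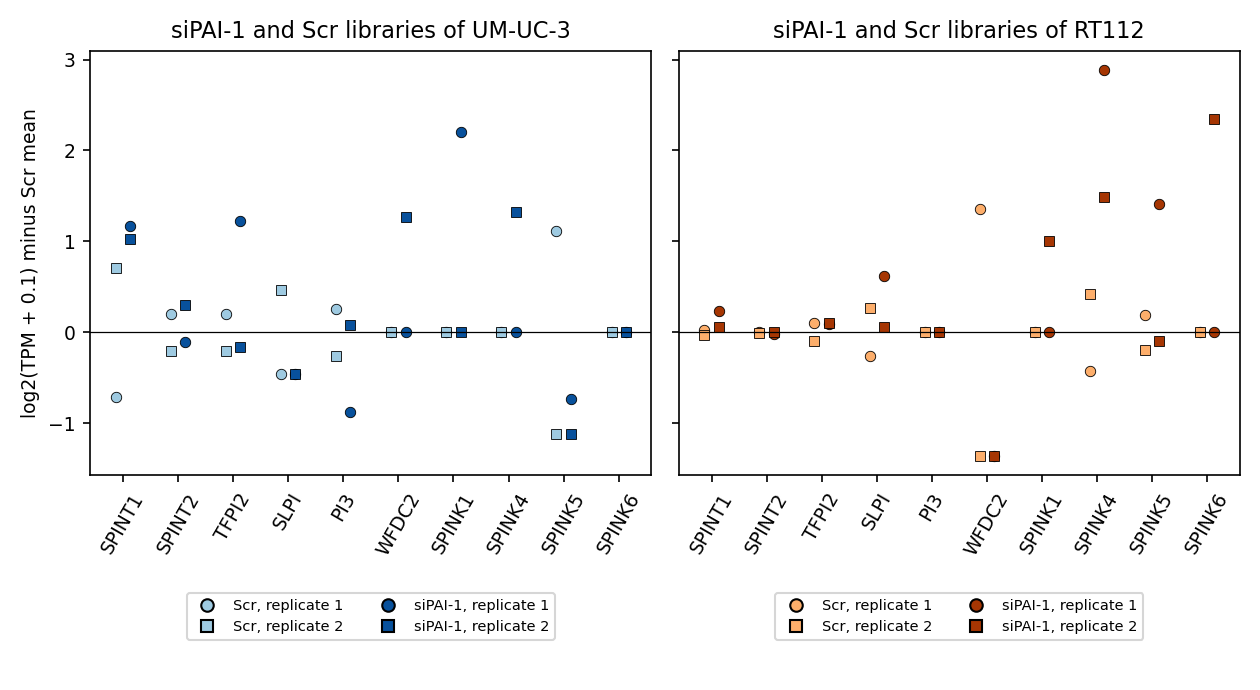
Log2(TPM + 0.1) of each library minus the mean over the Scr libraries of its line, for the 10 inhibitors in UM-UC-3 (left) and RT112 (right); circles are replicate 1 and squares replicate 2, light points Scr and dark points siPAI-1. SPINK4 in RT112 has both siPAI-1 points above 1 and the Scr points on either side of 0, while SPINT2 and TFPI2 in RT112 stay close to 0; the SPINK1, SPINK6 and WFDC2 points away from 0 come from single values of less than 1 TPM.

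Other values of RT112 siPAI-1 replicate 1 were set beside SPINK4. The goblet cell markers, of which 6 of 7 were in the table (MUC2 was not analysed here), summed to 1.96 TPM in this library and to 0.53 to 0.79 TPM in the other RT112 libraries. Most of this was TFF3, a secreted peptide of goblet cells, at 0.29 TPM in both Scr libraries and at 1.87 and 0.45 TPM in the siPAI-1 libraries. The goblet cell regulator SPDEF was at 0.16 and 0.36 TPM with Scr and 0.05 TPM in both siPAI-1 libraries, and CLCA1 was listed at 0 in all 8 libraries. FN1 was at 58.25 TPM in this library and at 108.4 to 120.4 TPM in the other RT112 libraries, and CDH2 at 7.65 TPM against 17.9 to 20.6 TPM. Tissue factor (F3) was at 90.18 TPM against 129.3 to 164.1 TPM, and KLK6 at 49.04 TPM against 75.7 to 82.2 TPM. These 4 genes are named after their values were seen. The part of these shifts in the higher SPINK4 value of this library was not tested.

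The genes whose pattern over the 4 RT112 libraries was most like that of SPINK4 were found among 12198 genes whose RT112 mean reached 1 TPM, as the smallest distance between centered log2(TPM + 0.1) values. Of the 5 nearest, 4 are reported: ENSG00000272764.1 (distance 0.80), CLEC7A (0.82), DEFB1 (0.84) and DHRS2 (0.90). DEFB1, an antimicrobial peptide of epithelia, was at 1.92 and 4.07 TPM in the Scr libraries and 10.47 and 6.35 TPM in the siPAI-1 libraries. DHRS2, a short-chain dehydrogenase, was at 24.36 and 36.83 TPM in the Scr libraries and 124.37 and 44.03 TPM in the siPAI-1 libraries. The genes were picked for this likeness over the same 4 libraries, and it was not tested.

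Among the further genes of these families, the serine proteases and tissue factor, and the genes of HGF and MSP signalling, 0 passed an adjusted p under 0.05 after knock-down in either line (limma). At an unadjusted p under 0.05 (limma), 2 of 12 further Kazal genes tested (AGRN and FSTL3) were lower in UM-UC-3. The same held for 1 of 3 further WAP genes (WFDC1). Of 9 further Kunitz genes and of 18 serine proteases and tissue factor, 0 passed. Over all genes tested in UM-UC-3, 3.41% were lower and 2.6% higher at this threshold. In RT112, 2 of 13 further Kazal genes (FST and FSTL3) were lower, 1 of 23 serine proteases and tissue factor (TMPRSS11E) was higher and MET was lower. Over all genes tested in RT112, 2.42% were lower and 3.35% higher. Whether the shares of these lists differ from those over all genes was not tested. FSTL3, a binding protein of activin, had a Scr mean of 25.2 TPM and a siPAI-1 mean of 20.7 TPM in UM-UC-3, and of 44.9 and 34.6 TPM in the RT112 groups (n = 2). These genes are named after their values were seen.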

How the data were processed

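RNA-seq was performed on 8 libraries (stranded mRNA, single reads of 75 bases). The deposited tables give TPM and FPKM values per gene, which the authors made from reads trimmed with cutadapt and aligned with STAR to hg38. The methods name featureCounts and DESeq2, whereas the submitters' processing notes list STAR 2.5.0, RSEM 1.2.25 and GRCh38. The deposited columns carry the file ending of RSEM's gene tables, so the TPM and FPKM values were read as RSEM output. Counts were not used here, so the test named in the methods was not run and limma took its place.

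The table has 27567 entries, and 92 ERCC spike-ins, all at 0, were left out. Of 27475 human genes, 20274 were above 0 TPM in any library. Groups were taken from the titles. The two-sided test of limma 3.58.1 (R 4.3.3; lmFit and eBayes with trend) was run on log2(TPM + 0.1) for genes that 1 or more of the fitted libraries had above 0 TPM, with Benjamini-Hochberg adjustment over all of them and a threshold of 0.05. Fold changes on this scale understate changes of low genes. Each comparison was fitted on its own 4 libraries. The same test was checked on simulated data. Depth was estimated as the number of reads between 20 and 45 M (steps of 0.1 M) that brings low FPKM values closest to whole reads, since a depth 2 times as large would also give whole reads. Reads per gene were estimated from it with the longest transcript; they are upper estimates and cover counting error only, as does the limit of 3 reads for an entry of 0.

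The 10 genes, the lists and the motifs were chosen with earlier results of these data known. Named are the 10 genes, from each list at most 4 called genes per direction with the greatest differences between the lines, and the 5 genes nearest to SPINK4. Of the genes covered by this rule, 2 are not reported here. The alternatives tried were FPKM values, pseudocounts of 0.01 and 1 TPM, a filter at a mean of 1 TPM, median ratio rescaling, eBayes without trend, fits over 8 libraries, the siPAI-1 libraries for the difference between the lines, a replicate block, and each library left out in turn. Python 3.11.15 was used with pandas 2.3.3, numpy 2.4.6 and, for plots, matplotlib 3.10.9.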

Additional observations from a re-analysis of the deposited data

How the results depend on the processing

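Of 454 alternative values for 37 results, 392 kept their direction and side of the threshold or moved by less than the limit set. Another 45 moved by more than this limit, 6 reversed direction and 11 newly passed the threshold. Of the genes still tested, 0 lost a call. In all, 8 values changed sign, 2 of them among the 45 that moved. In the comparison of the lines, SPINT1, SPINT2, TFPI2, SLPI and SPINK4 passed the threshold under every alternative run, and 5 or 6 of the 10 genes were higher. The sixth was SPINK5 (WFDC2 without RT112 Scr replicate 2), with an adjusted p of 0.0159 at a pseudocount of 1 TPM, 0.0498 with the median ratio, 0.0256 in the fit over 8 libraries and 0.000766 over 8 libraries with siRNA as covariate. SPINK5 did not pass at a pseudocount of 0.01 TPM (adjusted p 0.144), with FPKM (0.0506) or in eBayes without trend (0.0894). Leaving out UM-UC-3 Scr replicate 2, RT112 Scr replicate 1 or RT112 Scr replicate 2 also kept SPINK5 from passing. Leaving out UM-UC-3 Scr replicate 1 did not. SPINK4 was chosen on RT112 siPAI-1 values, so its calls in the siPAI-1 libraries and with siRNA as covariate are no independent support. PI3 was not tested with the filter at a mean of 1 TPM, which left 0 genes lower. WFDC2 had an adjusted p of 0.0164 without that RT112 library and turned to -0.63 in the siPAI-1 libraries. In UM-UC-3, the filter left 1 gene lower with siPAI-1, and the fit over 8 libraries put 1 of the inhibitors at an unadjusted p under 0.05. Leaving out 1 library at a time, in a fit over 7 libraries, gave 0 to 3 such inhibitors, 14 to 103 genes higher and 9 to 121 lower at an adjusted p under 0.05; the lone library is then taken to vary like the other groups. There the log2 differences changed sign for SPINK5 (-2.04 to 0.19), SPINT2 (-0.11 to 0.30), PI3 (-0.88 to 0.077) and TFPI2 (-0.16 to 1.22). In RT112, 2 genes were higher in the fit over 8 libraries, and leaving out 1 library at a time gave 5 to 224 genes higher and 12 to 77 lower, with SPINK4 between 1.49 and 2.88. There SPINK5 turned to -0.10 without siPAI-1 replicate 1 and TFPI2 to -0.007 without Scr replicate 2. Replicate numbers did not pair the libraries (correlation of replicate differences -0.005 between the lines, 0.056 in UM-UC-3 and -0.046 in RT112). A replicate block gave 4597 genes higher and 4790 lower between the lines, 6 and 1 of the 10 inhibitors among them, with SPINK5 at an adjusted p of 0.0308, and 0 genes at an adjusted p under 0.05 in either knock-down comparison. The depth of 29.3 to 34.1 M reads and 2 libraries per group limit what can be said of the genes below 1 TPM.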
